A study of Homo sapiens with 8 samples.

Results

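The cytosolic chaperone genes were examined as a group of 83 protein-coding genes among the 20037 of the RefSeq table for GRCh38.p14. They were chosen by symbol: the HSPA, HSPB, HSPD, HSPE and HSPH genes, HSP90AA1 and HSP90AB1, the DNAJA, DNAJB and DNAJC genes, the chaperonin genes CCT2 to CCT8 and TCP1, BAG1 to BAG6 and HSF1 to HSF4. The endoplasmic reticulum genes HSPA5, DNAJB9, DNAJB11, DNAJC3 and DNAJC10 were left out. The symbols did not keep strictly to the cytosol: 10 members were assigned to the mitochondrion, among them HSPA9, HSPD1 and HSPE1. To the endoplasmic reticulum membrane or lumen 8 were assigned, and this assignment may miss others. The chaperonin gene CCT6A does not match the symbol pattern and is given with other chaperone genes at the end. BAG proteins and HSF transcription factors are partners and regulators of chaperones rather than chaperones.

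The peaks come from CUT&RUN against NF-Y, a method that uses an antibody to bring a nuclease to a bound protein so that the DNA around it is cut out, in RH4 and RH30 cells. Both are rhabdomyosarcoma lines, and the labels give every library the genotype PAX3-FOXO1+. Uninfected RH4 cells gave 1 library each for the NF-Y subunits NFYB and NFYC. RH30 cells engineered with an inducible cytosine base editor received the control guides sgCtrl1 or sgCtrl2, or the guides sgCCAAT2a or sgCCAAT2b aimed at a CCAAT motif before PAX3, and were harvested 8 days after rapamycin was added. Each guide gave 1 NFYB library, and the last pair is called edited here. These 6 libraries are compared by their peak lists, and no guide or antibody had a replicate, so no p-value was computed and every difference is one between single libraries. Both IgG libraries (2 of the 8) were left out, being not analysed here. Titles give RH30 for 5 libraries whose source name and cell line read RH4, and the titles were followed. Peaks cannot check the identity of a line, and no expression was measured here.

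Depth in RH30, from the file headers, ran from 10.5 to 28.2 M tags (M, 10 to the power of 6), with 21.2 M in the sgCCAAT2a library and the most in the sgCCAAT2b library. The edited libraries were lowest in the share of tags in peaks (1.22% and 1.46%, against 2.40% and 3.10% in the controls). The lists held from 2451 to 6687 peaks, with 3243 for NFYB and 3760 for NFYC in RH4, where depth is unknown. PAX3 had a peak in both lists of RH4 and with both control guides, and in neither edited list. The sgCtrl2 list was the longest and the edited lists were the shortest. A call missing from one list therefore need not mean less binding, and the part of depth and list length in any difference below was not tested.

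HSP70 proteins hold unfolded stretches of other proteins in a cycle of ATP binding and release. J-domain proteins, named DNAJ, bring clients to HSP70 and start ATP hydrolysis, and BAG proteins and HSPH1 help release the nucleotide. HSP90 acts later on kinases and receptors, small HSPs hold clients without ATP, and the chaperonin ring of TCP1 and the CCT subunits encloses actin, tubulin and other proteins to fold them. In heat and other stress the HSF factors bind heat shock elements, inverted repeats of GAA, before many of these genes. NF-Y binds the CCAAT motif, which lies before the start of many housekeeping genes and of some heat shock genes.

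The sequences below are the bases just before the RefSeq start of genes on which the results turn, 200 bases for TCP1, whose divergent neighbour starts 210 bp away, and 250 for the others. They are printed 5′ to 3′ on the strand of the gene, from the RefSeq promoter table for GRCh38.p14. Capitals mark CCAAT or, where the motif lies on the other strand, ATTGG. The first 8 had NF-Y peaks over or near them; HSPA1A is shown because it holds 2 such motifs and had no peak.
HSPA8, chr11:123062137-123062386, minus strand: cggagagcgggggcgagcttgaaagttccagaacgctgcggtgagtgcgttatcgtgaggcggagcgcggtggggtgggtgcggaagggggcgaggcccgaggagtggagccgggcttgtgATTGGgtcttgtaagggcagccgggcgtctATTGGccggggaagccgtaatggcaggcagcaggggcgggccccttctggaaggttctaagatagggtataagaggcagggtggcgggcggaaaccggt
CCT3, chr1:156338293-156338542, minus strand: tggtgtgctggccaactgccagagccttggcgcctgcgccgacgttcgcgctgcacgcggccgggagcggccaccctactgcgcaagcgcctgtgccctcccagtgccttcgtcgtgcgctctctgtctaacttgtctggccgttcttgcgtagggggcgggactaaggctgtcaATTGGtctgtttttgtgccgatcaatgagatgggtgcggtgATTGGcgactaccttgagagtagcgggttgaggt
TCP1, chr6:159789603-159789802, minus strand: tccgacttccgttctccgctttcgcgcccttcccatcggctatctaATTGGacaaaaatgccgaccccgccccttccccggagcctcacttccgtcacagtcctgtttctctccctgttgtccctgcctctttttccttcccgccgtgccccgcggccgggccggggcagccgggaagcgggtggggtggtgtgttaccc
HSF2, chr6:122399301-122399550, plus strand: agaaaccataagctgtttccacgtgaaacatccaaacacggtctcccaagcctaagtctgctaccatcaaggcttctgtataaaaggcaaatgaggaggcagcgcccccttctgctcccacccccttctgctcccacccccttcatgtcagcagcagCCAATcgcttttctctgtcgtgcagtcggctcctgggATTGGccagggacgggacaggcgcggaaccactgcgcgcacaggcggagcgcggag
DNAJA3, chr16:4425618-4425867, plus strand: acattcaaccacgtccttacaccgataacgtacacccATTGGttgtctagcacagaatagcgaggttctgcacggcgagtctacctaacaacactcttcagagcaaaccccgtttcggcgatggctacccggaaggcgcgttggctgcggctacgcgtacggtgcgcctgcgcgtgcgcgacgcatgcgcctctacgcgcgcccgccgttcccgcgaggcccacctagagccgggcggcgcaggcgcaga
DNAJB1 inner start, chr19:14518398-14518647, minus strand: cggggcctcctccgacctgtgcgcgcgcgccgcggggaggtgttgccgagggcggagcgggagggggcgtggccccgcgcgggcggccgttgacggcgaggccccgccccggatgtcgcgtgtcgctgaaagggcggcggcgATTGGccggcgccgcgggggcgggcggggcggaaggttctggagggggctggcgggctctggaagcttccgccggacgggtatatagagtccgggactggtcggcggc
DNAJB1 outer start, chr19:14529272-14529521, minus strand: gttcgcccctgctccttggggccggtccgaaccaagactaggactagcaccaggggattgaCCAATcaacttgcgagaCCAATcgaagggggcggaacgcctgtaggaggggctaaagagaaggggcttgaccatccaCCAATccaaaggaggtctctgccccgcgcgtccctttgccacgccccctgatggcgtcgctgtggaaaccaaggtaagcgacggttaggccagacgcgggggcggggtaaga
DNAJC14 inner start, chr12:55829588-55829837, minus strand: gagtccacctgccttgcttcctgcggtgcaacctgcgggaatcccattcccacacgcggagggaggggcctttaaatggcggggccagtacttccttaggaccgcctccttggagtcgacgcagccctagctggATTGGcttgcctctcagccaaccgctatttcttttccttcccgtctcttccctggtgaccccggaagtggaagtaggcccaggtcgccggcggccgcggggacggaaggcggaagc
HSPA1A, chr6:31815293-31815542, plus strand: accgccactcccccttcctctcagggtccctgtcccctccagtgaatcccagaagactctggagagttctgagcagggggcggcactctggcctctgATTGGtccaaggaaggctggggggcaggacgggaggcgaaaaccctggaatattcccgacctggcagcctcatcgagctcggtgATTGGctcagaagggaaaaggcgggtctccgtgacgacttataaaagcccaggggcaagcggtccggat

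A gene was said to have a peak in a list when a peak overlapped the 1000 bp on either side of either end of the gene. By this rule 19 of the 83 genes had a peak in at least 1 of the 6 lists (22.9%, 95% exact interval 14.4 to 33.4%), beside 21.7% of all protein-coding genes. In RH4 17 genes (20.5%, 12.4 to 30.8%) had an NFYB peak, beside 15.0% of all genes, and 14 (16.9%, 9.54 to 26.7%) had an NFYC peak, beside 15.3%. In RH30 each of the 4 lists held a peak at 11 of the 83 genes (13.3%, 6.81 to 22.5%). The matching background was 12.6% for sgCtrl1, 16.8% for sgCtrl2, 8.9% for sgCCAAT2a and 9.27% for sgCCAAT2b. The intervals, which cover the counting of genes only, held the background share in all 6 lists, so the group as a whole stood near the background.

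**Figure D1:**
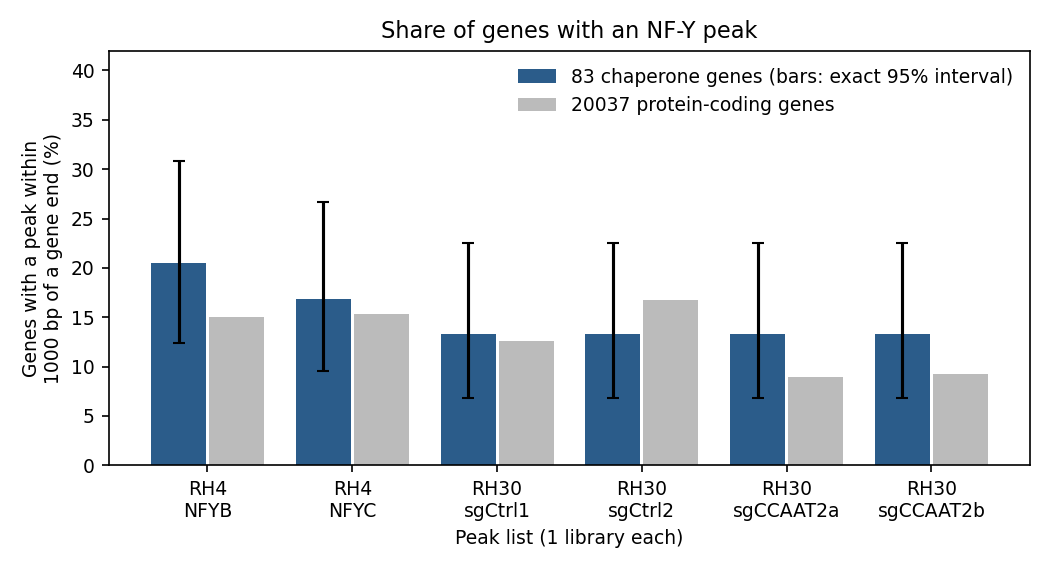
Share of genes with an NF-Y peak within 1000 bp of a gene end (vertical axis, percent) in each of the 6 peak lists, for the 83 chaperone genes (blue, with exact 95% intervals) and for all 20037 protein-coding genes (grey). The blue bars lie between 13.3% and 20.5%, and each interval takes in the grey bar beside it.

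Of the 83 genes, 64 had no peak in any list and 8 had one in all 6 (9.64%, 4.25 to 18.1%), beside 7.03% of all genes. The 8 were HSPA8, CCT3, CCT7, TCP1, DNAJB5, HSPB6, BAG4 and HSF2. They come from 6 families, and 3 of them are chaperonin subunits. No member had a peak in 5 lists, 4 had one in 4 lists, 1 in 3 lists, 2 in 2 lists and 4 in exactly 1 list, beside 5.71% of all genes for exactly 1 list. Without the sgCtrl2 list the count in all remaining lists was again 8, for which no share over all genes was computed.

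**Figure D2:**
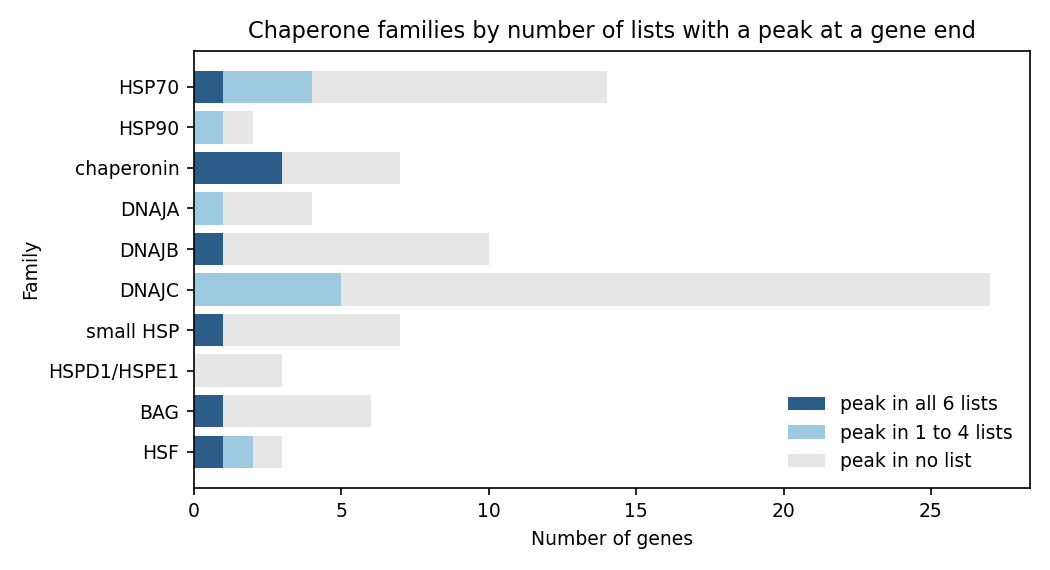
Number of genes in each chaperone family (horizontal axis) that had a peak at a gene end in all 6 lists (dark blue), in 1 to 4 lists (light blue) or in no list (grey). The chaperonins had 3 of 7 genes in all 6 lists, and the 27 DNAJC genes had none.

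By family, chaperonins came first among those with more than 3 genes: 3 of 7 (42.9%) had a peak in at least 1 list. The share over all genes was 21.7%. The same 3 chaperonins had it in every list, but at CCT7 and TCP1 every peak was nearer to a neighbouring gene. HSP70 genes followed with 4 of 14 (28.6%), then DNAJA with 1 of 4, DNAJC with 5 of 27 (18.5%), BAG with 1 of 6 (16.7%), small HSP with 1 of 7 (14.3%) and DNAJB with 1 of 10. Of the 3 HSF genes 2 had a peak, of the 2 HSP90 genes 1, and of HSPD1, HSPE1 and the readthrough gene HSPE1-MOB4 none. These families hold few genes, and whether one differs from another was not tested. Between the lists some families kept their counts: chaperonins had 3, small HSPs 1, BAG genes 1 and DNAJB genes 1 in each list. HSF genes had 2 with sgCtrl1 and 1 in each other list, DNAJA genes 1 in each RH4 list and 0 in RH30, and HSP90 genes 1 with sgCtrl2 and 0 elsewhere. DNAJC genes ranged from 1 in each control to 5 for NFYB in RH4, and HSP70 genes from 2 in each RH30 list to 4 for NFYB in RH4.

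**Figure D3:**
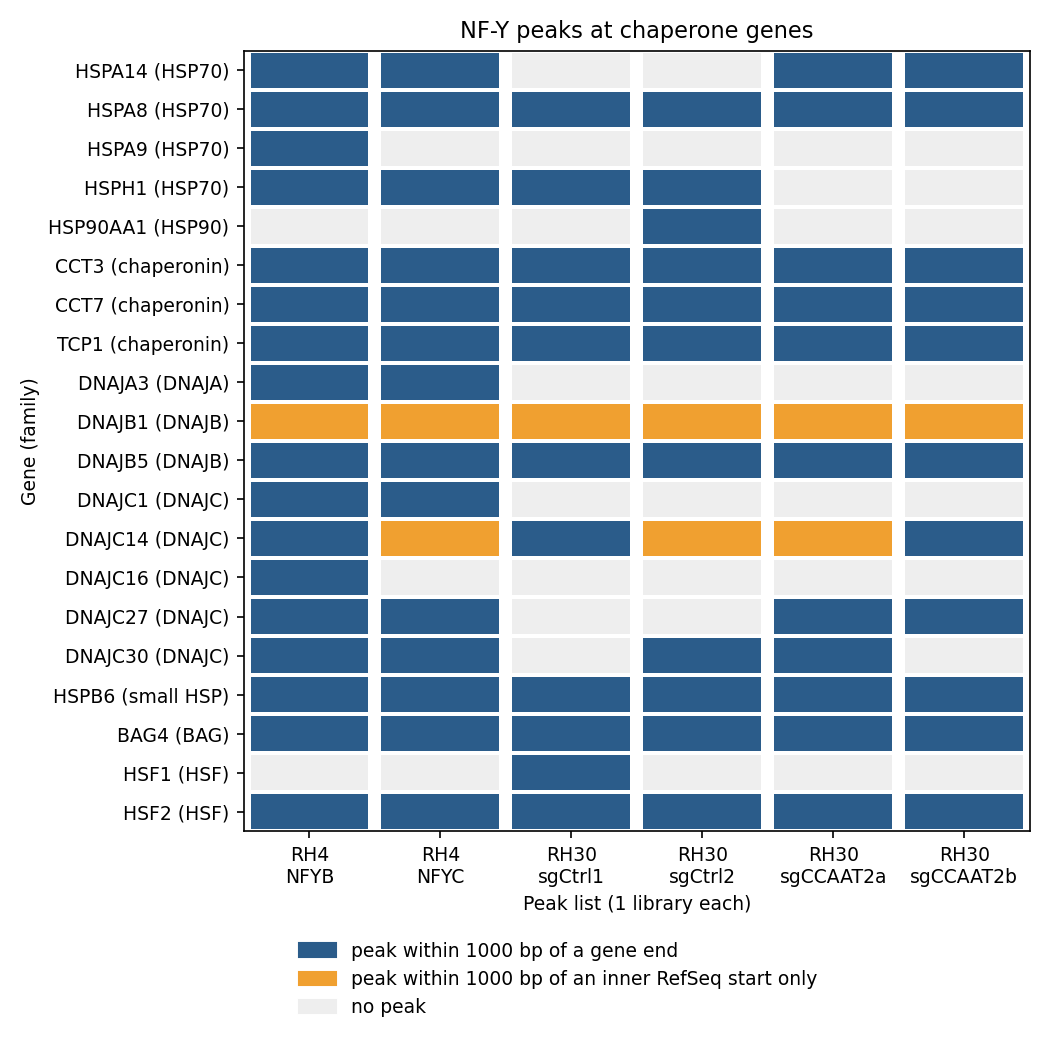
NF-Y peaks (columns, the 6 peak lists) at the 19 genes with a peak at a gene end and at DNAJB1 (rows, with the family in brackets). Blue cells mark a peak within 1000 bp of a gene end, orange cells a peak found only within 1000 bp of another RefSeq start of the gene, and grey cells no peak. The rows of 8 genes are blue throughout, DNAJB1 is orange throughout, and HSPA14 and DNAJC27 are grey in both controls and blue elsewhere.

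HSPA8 (chromosome 11, 123057489 to 123062462, minus strand) encodes the constitutive HSP70 of the cytosol. It was the only one of 14 HSP70 genes with a peak in every list. The peak centre lay 134 bp upstream of the RefSeq start with sgCtrl1, 137 bp with sgCtrl2, 134 bp with sgCCAAT2a and 122 bp with sgCCAAT2b. The 4 RH30 libraries thus placed it within 15 bp of each other, and within 10 bp of the nearer of the 2 ATTGG motifs in the sequence above. In RH4 the peaks were wider, 490 bp for NFYB and 448 bp for NFYC, and centred 299.5 and 264.5 bp upstream. The outer annotated end of the gene lies upstream of this start.

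HSPH1 (chromosome 13, 31134973 to 31162388, minus strand), the HSP110 nucleotide exchange factor, had a peak in both RH4 lists and both RH30 controls and in neither edited list. The centres of its peaks lay inside the gene. They were 149 bp inside the 5′ end for NFYB and 190.5 bp for NFYC in RH4, 252 bp with sgCtrl1 and 282 bp with sgCtrl2. In the edited lists the nearest peak was 669 kb away. HSPH1 was the only member with a peak in both controls and neither edited list, 1 of 83, beside 2.44% of all genes. With a peak for NFYB in RH4 asked for as well it was again 1, beside 1.82%. A peak in both controls and both edited lists was found at 8 members (9.64%), beside 7.47%. Of the 9 members with a peak in both controls it was the 1 missing from both edited lists, and over all genes that share was 21.6%. HSPH1 peaks stood at place 1400 of 4025 in the sgCtrl1 file and 1031 of 6687 in the sgCtrl2 file.

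HSPA14 (chromosome 10, 14838306 to 14871741), a ribosome-associated HSP70, showed the opposite pattern in RH30. It had peaks in both RH4 lists and both edited lists and in neither control. The peak centres lay 192.5 bp and 176.5 bp outside the lower gene end for NFYB and NFYC in RH4, 139 bp with sgCCAAT2a and 160 bp with sgCCAAT2b. The nearest control peak was 25.8 kb away with sgCtrl1 and 7.02 kb away with sgCtrl2. The peaks were slightly nearer to CDNF, the gene of a neurotrophic factor, at 76.5 to 130 bp. HSPA9, the HSP70 of the mitochondrion, had a single peak, for NFYB in RH4, centred 169.5 bp upstream of its 5′ end. The other 10 HSP70 genes, among them the stress-inducible HSPA1A, HSPA1B and HSPA6, had no peak at a gene end in any list.

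Of the HSP90 pair, HSP90AA1, the stress-inducible form, had a peak with sgCtrl2 only, centred 68 bp upstream of the outer of its 2 RefSeq starts. It stood at place 3562 of 6687 in that file, and in the other 5 lists the nearest peak was 132 kb away. The inner start of HSP90AA1 had no peak within 1000 bp in any list. HSP90AB1, the constitutive form, had 3 RefSeq starts and no peak at any of them, and its nearest peak was 26.7 kb away with sgCtrl2.

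**Figure D4:**
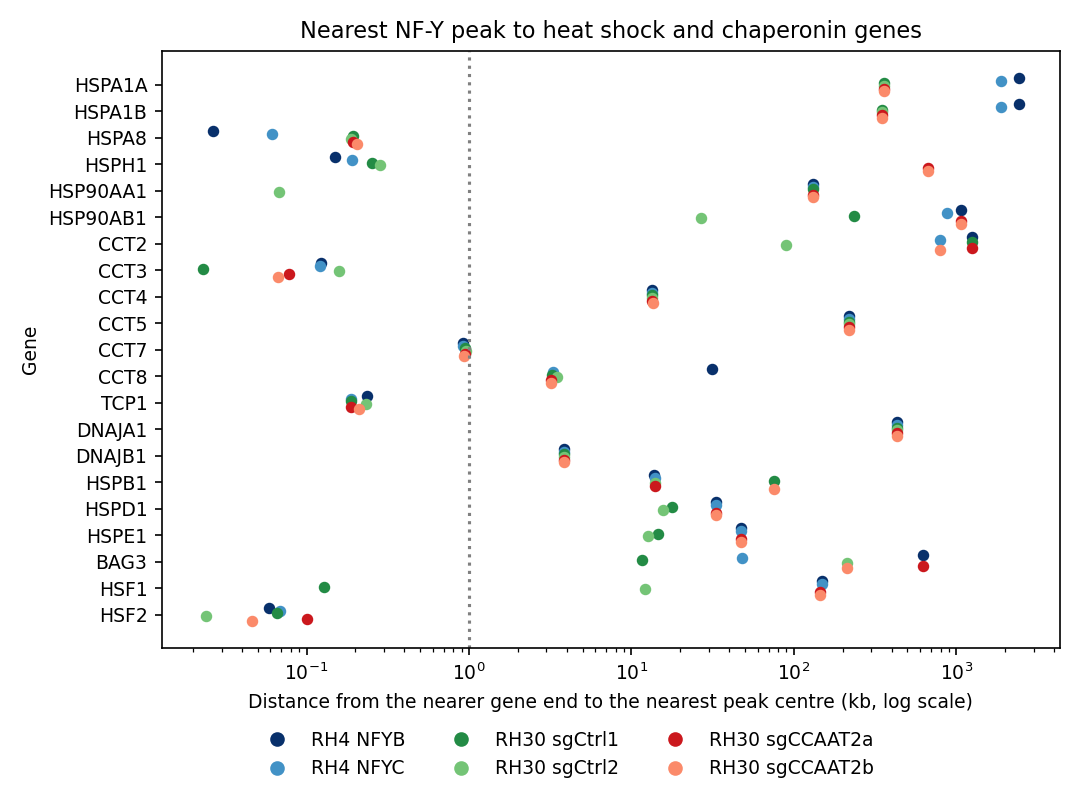
Distance from the nearer gene end to the centre of the nearest peak (horizontal axis, kb, log scale; the dotted line is 1 kb) for 21 heat shock and chaperonin genes (rows), with 1 point for each of the 6 lists. All 6 points of HSPA8, CCT3, CCT7, TCP1 and HSF2 lie left of the line. HSPA1A lies 360 kb or more from any peak, and DNAJB1 3.82 to 3.84 kb.

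Of the 7 chaperonin genes, CCT3, CCT7 and TCP1 had a peak in every list, while CCT2, CCT4, CCT5 and CCT8 had none. CCT3 (chromosome 1, 156308968 to 156338292, minus strand), the gamma subunit, had its peak at its own start. The centres lay 123 bp upstream for NFYB and 121 bp for NFYC in RH4, 23 bp with sgCtrl1, 158 bp with sgCtrl2, 78 bp with sgCCAAT2a and 67 bp with sgCCAAT2b. The spread in RH30, 135 bp, was wider than at HSPA8, and the 2 ATTGG motifs of CCT3 lie at positions -75 and -34, counted from the start to the first base of the motif, with negative values upstream.

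TCP1 (chromosome 6, 159778498 to 159789602, minus strand), the alpha subunit, had 2 peaks in every list. The inner peak lay 188 to 237 bp upstream, and the outer peak 719.5 to 829 bp upstream. MRPL18, the gene of a mitochondrial ribosomal protein, starts 210 bp away in the other direction, so the inner peak lay between 1 and 27 bp from its end. All 12 peaks were nearer to MRPL18 than to TCP1. CCT7 (chromosome 2, 73234308 to 73253005, plus strand), the eta subunit, met the rule only just. Its peaks were centred 917.5 to 965 bp upstream and lay 59 to 106.5 bp from the end of PRADC1, and with a window of 500 bp CCT7 had a peak in no list. That peak stood early in the RH30 files, at place 32 of 4025, 129 of 6687, 51 of 2451 and 45 of 2558. CCT8, the theta subunit, had its nearest peak 3.21 to 3.49 kb away in 5 lists and 31.4 kb away for NFYB in RH4.

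Of the J-domain genes, 1 of 4 DNAJA, 1 of 10 DNAJB and 5 of 27 DNAJC genes had a peak at a gene end. DNAJB5 (chromosome 9, 34989745 to 34998900, plus strand) was the only J-domain gene with it in all 6 lists. Its peak centres lay 152 and 158 bp upstream of the gene for NFYB and NFYC in RH4, 130 bp with sgCtrl1, 86 bp with sgCtrl2, 129 bp with sgCCAAT2a and 173 bp with sgCCAAT2b. The nearest other gene was at least 7028 bp away. The RH30 peaks stood early in the files, at place 167 of 4025, 145 of 6687, 306 of 2451 and 373 of 2558.

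DNAJB1, the main stress-inducible partner of HSP70, had no peak at either gene end and yet had 2 peaks in every list. The RefSeq gene spans positions 14514769 to 14560391 of chromosome 19 on the minus strand, and its 3 annotated starts, at 14517937, 14518397 and 14529271, lie inside that span, so that the rule of gene ends passed them by. At the inner start the peak centres were 210.5 bp and 206 bp upstream for NFYB and NFYC in RH4, 212 bp with sgCtrl1, 203 bp with sgCtrl2, 192 bp with sgCCAAT2a and 203 bp with sgCCAAT2b. These 6 values lie within 20 bp of one another, and 86 to 106 bp from the only ATTGG in that sequence. At the outer start the centres were 212 and 285.5 bp upstream for NFYB and NFYC in RH4, 150 bp with sgCtrl1, 280 bp with sgCtrl2, 149 bp with sgCCAAT2a and 159 bp with sgCCAAT2b, beside 3 CCAAT motifs at positions -189, -172 and -112. In RH30 the peak of the outer start stood earlier in each file than that of the inner start, at place 163 against 699 with sgCtrl1, 299 against 467 with sgCtrl2, 269 against 960 with sgCCAAT2a and 243 against 1058 with sgCCAAT2b. DNAJB1 is not counted among the 19.

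DNAJC14, whose product helps a dopamine receptor leave the endoplasmic reticulum, was a like case. It had a peak by the rule in 3 lists, NFYB in RH4, sgCtrl1 and sgCCAAT2b, centred 1040.5 to 1091 bp inside the gene, so that only the edge of each peak reached the window. Over its inner RefSeq start, at position 55829587 of chromosome 12, it had a peak in all 6 lists, centred 147.5 and 76.5 bp upstream for NFYB and NFYC in RH4, 97 bp with sgCtrl1, 74 bp with sgCtrl2, 51 bp with sgCCAAT2a and 111 bp with sgCCAAT2b. With windows around gene ends and around every RefSeq start, 20 members had a peak in at least 1 list (background 23.1%) and 10 in all 6 (background 7.59%). The additional genes in all 6 were DNAJB1 and DNAJC14. This wider rule was chosen after the peaks had been seen.

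DNAJC27, a small GTPase with a J domain, shared the pattern of HSPA14. Its peaks lay inside the 5′ end, 277.5 bp and 208.5 bp inside for NFYB and NFYC in RH4, 211 bp with sgCCAAT2a and 171 bp with sgCCAAT2b, and the nearest control peak was 69.9 kb away with sgCtrl1 and 323 kb away with sgCtrl2. A peak in both edited lists and neither control was rare, at 21 of 20037 genes (0.105%), and 2 of these were chaperone genes (2.41% of 83). Both also had a peak for NFYB in RH4, a pattern of 17 genes in all (0.0848%). Their peaks stood at place 1078 of 2451 and 1160 of 2558 for HSPA14 and 541 and 792 for DNAJC27. This pattern was not among the planned comparisons, and all peaks of HSPA14 were nearer to CDNF than to HSPA14. With 1 library per guide the pattern has no replicate check.

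DNAJC30, a mitochondrial protein of respiratory complex assembly, had a peak in 4 lists, both from RH4, sgCtrl2 and sgCCAAT2a, so that it divided neither controls from edited libraries nor RH4 from RH30. It lay at the start it shares with BUD23, 144 bp apart. DNAJA3 (chromosome 16), the J-domain partner of HSPA9 in the mitochondrion, and DNAJC1, a J-domain protein of the endoplasmic reticulum membrane, had a peak in both RH4 lists and no RH30 list. At DNAJA3 the centres were 216 and 202.5 bp upstream for NFYB and NFYC, 5 and 8.5 bp from its ATTGG at position -213, and the nearest RH30 peak was 159 kb away. At DNAJC1 they were 75.5 bp inside and 30 bp outside the higher gene end. This RH4 pattern was found at 2 of 83 genes (2.41%), beside 1.64% of all genes. DNAJC16 had 1 peak, with NFYB in RH4, 215 bp upstream.

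DNAJC7, a cytosolic partner of HSP70 and HSP90, had no peak at an end or an annotated start and 1 peak in the gene body in every list. It was centred 6089.5 to 6177.5 bp inside the gene in all 6, and 6226.5 bp or more from the end of NKIRAS2, the nearest other gene. DNAJC15, a protein of the mitochondrial inner membrane, had a peak in the gene body with sgCtrl2 and sgCCAAT2b. HSPA12A had a gene body peak with sgCtrl2, and BAG3 with sgCtrl1. HSPE1-MOB4 had gene body peaks with sgCtrl1 and sgCtrl2, each nearer to an end of MOB4.

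Among the small HSPs only HSPB6, expressed in muscle, met the rule, and its peak lay far from its start. The centres were 720.5 to 987 bp upstream of HSPB6 and 160 to 426.5 bp from the end of PROSER3, and with a window of 500 bp HSPB6 had a peak in no list. In the RH30 files it stood early, at place 104 of 4025, 138 of 6687, 109 of 2451 and 105 of 2558. HSPB1, the main small HSP of stressed cells, had its nearest peak 13.8 kb away or more. HSPD1 and HSPE1, the chaperonin pair of the mitochondrion with starts 105 bp apart, had their nearest peak 15.7 and 12.6 kb away, both with sgCtrl2.

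Of the BAG genes, BAG4 on chromosome 8, an HSP70 cofactor that also binds death receptors, had a peak in all 6 lists. Its centres lay 113.5 to 292 bp outside the lower gene end, and 10 to 167 bp from LSM1, a gene of mRNA decay. BAG3, the stress-inducible cofactor of autophagy, had no peak at its ends. The peak nearest to an end, with sgCtrl1, lay in the gene body, 11.7 kb inside.

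Of the HSF genes, HSF2 (chromosome 6, 122399551 to 122433119, plus strand), a heat shock factor of development, had a peak in every list, 43824 bp or more from the nearest other gene. The centres lay 58.5 and 69 bp upstream for NFYB and NFYC in RH4, 66 bp with sgCtrl1, 24 bp with sgCtrl2, 100 bp with sgCCAAT2a and 46 bp with sgCCAAT2b. Both motifs of its promoter, at positions -93 and -56, lay inside the range of these centres. HSF1, the main regulator of the heat shock response, had a peak with sgCtrl1 only, centred 128 bp outside its lower end and 38 bp from BOP1, at place 3440 of 4025. HSF4, the factor of the lens, had no peak.

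Many of these peaks lay nearer to another gene than to the chaperone gene. Of 83 pairs of a peak and a member, 46 had the member as the nearest protein-coding gene. For 13 of the 19 genes every peak was nearest to the member, and for 6 (HSPA14, CCT7, TCP1, HSPB6, BAG4 and HSF1) every peak was nearer to a neighbour. Counting only peaks nearest to a member, 12 genes had one for NFYB and 9 for NFYC in RH4 (14.5% and 10.8%, beside 12.4% and 12.9% of all genes). With sgCtrl1, sgCtrl2, sgCCAAT2a and sgCCAAT2b it was 6, 7, 6 and 6 genes (7.23%, 8.43%, 7.23% and 7.23%, beside 10.5%, 14.2%, 7.3% and 7.57%). The members with a peak nearest to them in all 6 lists were 4: HSPA8, CCT3, DNAJB5 and HSF2. For this count the share over all genes was not computed, so it cannot be set against a background. For the 15 genes with a peak whose strand is in the promoter table, the peaks were nearer to the 5′ than to the 3′ end in all 15. They include CCT7, TCP1 and HSPB6, whose peaks were nearer to a neighbour, and DNAJC14, whose peaks were centred more than 1000 bp inside the gene. No share over all genes was computed for this, so it is not a trait of these genes.

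HSPA1A, HSPA1B, HSPA1L and BAG6 lie in a part of chromosome 6 that held almost no peaks, which limits what their lack of a peak can show. Within 1 Mb of HSPA1A there are 88 protein-coding genes, of which 0 had a peak for NFYB or NFYC in RH4 and 2, AGPAT1 and RNF5, had one in each RH30 list (2.27%). Those 2 share 1 peak. The share over all genes was 8.9 to 16.8% in the 6 lists. The promoters of HSPA1A and HSPA1B were alike at 277 of 299 positions (92.6%), and the sources used here do not say how reads that fit more than 1 place were treated. The calls at these genes are therefore uncertain, although HSPA1A and HSPA1B each hold 2 ATTGG motifs.

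The CCAAT motif, written CCAAT or ATTGG, was sought in the 300 bases from 250 before to 50 after the outermost RefSeq start, and 74 of the 83 members matched an entry of the promoter table. It was found before 25 of 74 members (33.8%), beside 36.4% of 15843 protein-coding genes. Of the 15 members in the table with a peak in at least 1 list 11 held it (73.3%), beside 64.1% of all genes with such a peak. Of the 7 members with a peak in all 6 lists 6 held it (85.7%), beside 85.3% of all genes in all 6 lists. Of the 59 with a peak in no list 14 did (23.7%), beside 28.0%. Of the 14 members with the motif and no peak at an end, DNAJB1 had peaks at inner starts, and HSPA1A, HSPA1B and HSPA1L lie in the stretch with few peaks. The others were HSPA2, CCT2, CCT8, DNAJB7, DNAJB8, DNAJC4, DNAJC5G, DNAJC11, DNAJC12 and DNAJC28. HSPA1A and HSPA1L start 260 bp apart in opposite directions and share their motifs, which were counted for both. CCT7, DNAJC16, HSPA9 and HSPH1 had a peak and no motif in that sequence, and at CCT7 and HSPH1 most or all of the peak lay outside it. DNAJB5, HSPB6 and DNAJC14 were counted with the motif, but no peak in any list overlapped the sequence at their outermost start. DNAJC27 and HSP90AA1 were also counted, but the motif there lay outside the peak that reached the sequence. The shares therefore do not count motifs under a peak. Over every start whose sequence a peak overlapped, 13 of 16 starts of members held the motif (81.2%), beside 72.2% for all genes. With only the 150 bases before the start, 6 of the 15 members with a peak held it (40.0%), beside 54.3% of all genes with a peak, and 10 of the 59 without (16.9%), beside 18.3%.

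**Figure D5:**
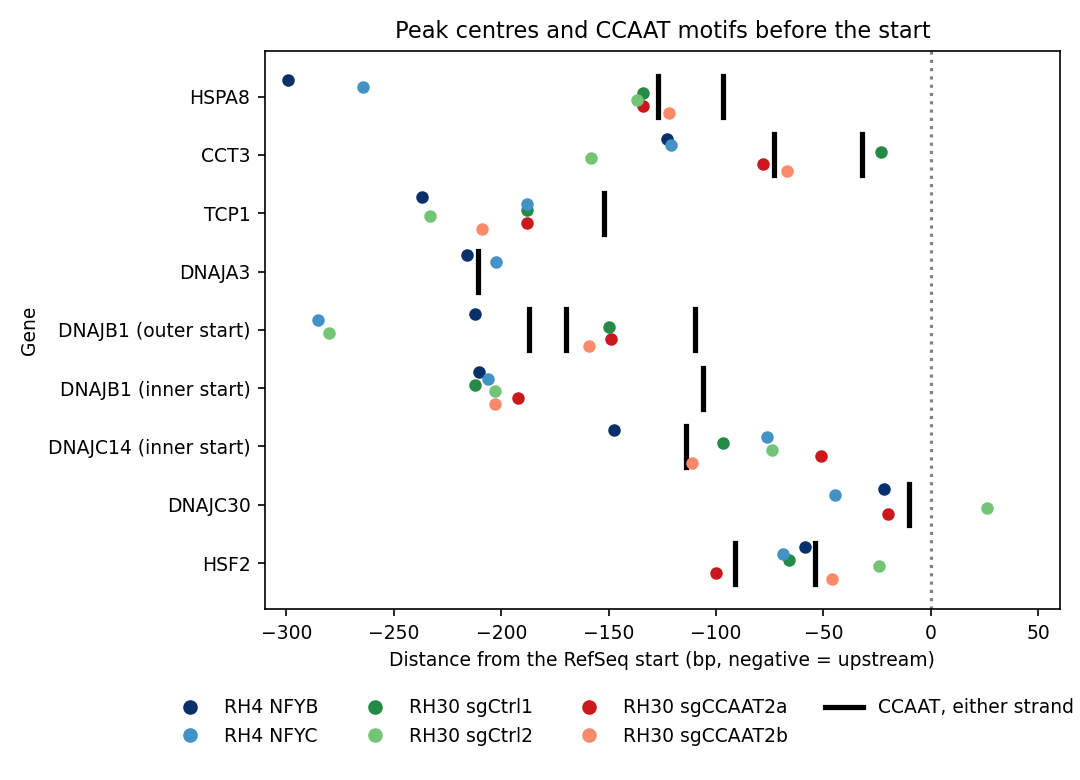
Centres of NF-Y peaks (points, coloured by list) and CCAAT motifs on either strand (black bars) relative to the RefSeq start (horizontal axis, bp, negative is upstream, dotted line at the start) for 9 starts of 8 chaperone genes (rows). The 4 RH30 points of HSPA8 lie within 10 bp of a motif, those of the DNAJB1 inner start 86 to 106 bp from its only motif, and DNAJA3 has RH4 points only.

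The distance to the motif was measured for peaks of the RH30 lists, which per the file headers are centred on the largest pile-up of tags. Peaks at CCT7, DNAJB5, HSPB6, BAG4, HSPA14 and HSPH1 gave no distance, as none was centred in a promoter sequence of the table. Over 35 pairs of an RH30 peak and a member's start with the peak centre inside the sequence, the distance from the centre to the nearest CCAAT had a median of 20 bp and ran from 3 to 153 bp, and 18 of them were within 20 bp. The pairs come from 9 genes and 11 starts, and the starts of HSF2 share peaks. Over all promoters the median was 20, 26, 16 and 12 bp with sgCtrl1, sgCtrl2, sgCCAAT2a and sgCCAAT2b. For members it was 14.5, 40, 10 and 8 bp in the same order. The share within 20 bp was not computed over all promoters. The longest distance, 153 bp, was that of the HSP90AA1 peak found with sgCtrl2 only.

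Heat shock elements were sought as GAANNTTC or TTCNNGAA, each of which reads the same on both strands, in the same 300 bases. They were found before 16 of 74 members (21.6%), beside 11.4% of all genes. This count leaves out matches at inner starts only, as at HSP90AA1, HSP90AB1, HSPD1 and DNAJB1. HSPA1A and HSPA1L share the same match between their starts, and it was counted for both. Over every start, 27 of 99 starts of members held a heat shock element (27.3%), beside 11.6% for all genes. Of the members with a peak in at least 1 list 4 of 15 held one, HSPA8, HSPA9, HSPB6 and TCP1 (26.7%, beside 9.97% of all genes with a peak), and of those with none 12 of 59 (20.3%, beside 11.9%). HSPA8 held 4 matches, some of them overlapping, and 2 ATTGG motifs. HSPA1A held 1 match at position -106, between its 2 ATTGG motifs at positions -153 and -69. A match is a run of letters and does not show a site in use.

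Peaks at chaperone genes were looked up in the authors' deposited tables, made by HOMER at a 2.5-fold difference in tags and a Poisson p of 0.001 from sgCtrl2 peaks. Of 12 sgCtrl2 peaks at members, the authors' deposited table over sgCtrl1 listed 0, beside 11.8% of the 2900 sgCtrl2 peaks at gene ends. The authors' deposited table over sgCCAAT2a listed 2 of the 12 (16.7%), at HSPA8 and HSPH1, beside 57.0%. The authors' deposited table over sgCCAAT2b listed 2 (16.7%), at HSPH1 and HSP90AA1, beside 51.1%. The peak at the inner start of DNAJB1, which is outside these 12, was listed over both edited libraries and the one at its outer start over neither in the authors' deposited tables. Of the 12 peaks, 7 were nearest to the member and 10 overlapped an sgCtrl1 peak. Those at CCT7, TCP1, HSPB6 and BAG4, nearer to a neighbour, were listed in none of the tables. The 2900 peaks were not matched for these traits, and whether the shares differ was not tested. All 3 tables use the same sgCtrl2 library and compare single libraries. HSPA8 had a peak in the sgCCAAT2a list although it was listed as higher in sgCtrl2.

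Other genes of the chaperone network were taken from a list of 32: HSP90 and HSP70 cochaperones, prefoldins, CCT6A and CCT6B, mitochondrial chaperones, and the endoplasmic reticulum genes left out above with HSP90B1. Of these 32, 16 had a peak in at least 1 list, a larger share than the 21.7% of all genes. In all 6 lists 7 of the 32 had one (21.9%), beside 7.03% of all genes. Whether the peaks at these 32 genes lay nearer to a neighbouring gene was not tested, and neither was the difference from all genes. The 7 were HSPA5, HSP90B1, DNAJB11 and DNAJC3 of the endoplasmic reticulum, STIP1, which joins HSP70 to HSP90, GRPEL1, the nucleotide exchange factor of HSPA9, and CCT6A, the zeta chaperonin subunit. DNAJB9 had a peak in 5 lists, and CCT6B and UNC45A, a myosin chaperone, in 3 each. CDC37, HSPBP1, PTGES3, SGTA, PFDN2 and GRPEL2 had one in a single list. The cochaperones AHSA1, CHORDC1, FKBP4, FKBP5, ST13, STUB1 and PPID had none, nor did TRAP1, CLPB, DNAJC10, UNC45B, VBP1 and the prefoldins PFDN1, PFDN4, PFDN5 and PFDN6. The endoplasmic reticulum genes entered this list with earlier results of these data known, and their count is a description.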

How the data were processed

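The authors deposited peak positions as BED files, per the file headers and names, and a score column that holds 1 for every entry, so peaks could not be ranked by height. HOMER findPeaks (factor style) was run on each RH30 library against an input directory named S3, with at least 2-fold more tags than the input, 4-fold more than the surrounding 10000 bp and a Poisson p of 0.0001, per the file headers. For RH4 no caller is named in the sources used here, and the entries also hold coordinates of another build. The submitters' processing notes name the build hg38 and, in no order, HOMER, Bowtie2, deepTools, MACS2, Trimmomatic, bedtools and FastQC.

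Peaks were compared with 1000 bp windows around gene ends of RefSeq GRCh38.p14 in Python 3.11.15, after conversion to 1-based positions. Strand and sequence came from the RefSeq promoter table, which matched 74 of 83 members. On simulated lists the gene sets matched bedtools 2.31.1 in 18 of 18 runs. The place of a peak is its line in the RH30 file, which the headers do not state to be a rank. Members and lists were chosen with earlier results of these data known. By the naming rule every member with a peak is named, and positions are given for members in all 6 lists, for those in both RH30 controls and neither edited list, and for a set of 21 heat shock genes. Positions of HSPA14, DNAJC27, DNAJA3, DNAJC1, DNAJC14, DNAJC16, DNAJC7 and HSPA9 fall outside that rule and were added after their values were seen. Alternatives were windows of 500 and 3000 bp, the peak centre, the 5′ end only, stricter lists and smaller gene sets.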

Additional observations from a re-analysis of the deposited data

How the results depend on the processing

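Of 197 values under alternative settings, 175 were within 1.5 times the value reported and 22 were not. Keeping only the wider peaks of the RH4 NFYB list, from its median width up, 10 members had a peak in place of 17. Counting only peaks nearer to a member than to another gene, a setting added after seeing the data, gave 9 members for NFYC in RH4, and 6, 7, 6 and 6 with sgCtrl1, sgCtrl2, sgCCAAT2a and sgCCAAT2b, and 4 members in all 6 lists. Without the sgCtrl2 list, also added after seeing the data, 2 members (HSPH1 and HSF1) had a peak in the remaining control and in neither edited list. The peak at HSF1 was nearer to BOP1. The share over all genes was not computed for this count, so it cannot be set against a background. DNAJB genes with a peak numbered 2 with a window of 3000 bp and 2 with every RefSeq start, the latter setting added after seeing the data, and small HSP genes 0 with a window of 500 bp. In the authors' deposited table over sgCtrl1 1 of 16 peaks was listed with a window of 3000 bp, and in that over sgCCAAT2b 1 of 10 sgCtrl2 peaks that overlap an sgCtrl1 peak. With 150 bases before the start, 6 of the members with a peak held CCAAT. The setting with the 5′ end only leaves out the 9 members without a strand. No paired analysis was possible because each group has 1 library. Depth is unknown in RH4, and peaks without heights cannot show a partial change in binding.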
